A study of Homo sapiens with 18 samples.

Results

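The genes followed here are 39 genes of the lysosome and of autophagy, read on 18 microarrays of U251 cells. They were chosen by name, with earlier results of these data known. They comprise 3 transcription factors of the TFEB type (TFEB, TFE3 and MITF), 11 lysosomal enzymes and lumen proteins (CTSA, CTSD, CTSL, CTSZ, NEU1, GLA, GLB1, GAA, HEXA, PSAP and NPC2) and 4 lysosomal membrane proteins (LAMP1, LAMP2, MCOLN1 and NPC1). A further 7 encode subunits of the proton pump of the lysosome (ATP6V0D1, ATP6V0E1, ATP6V1A, ATP6V1B2, ATP6V1C1, ATP6V1D and ATP6V1H), 5 act early in autophagy (ULK1, BECN1, UVRAG, WIPI1 and WIPI2) and 9 belong to its lipid conjugation systems (ATG3, ATG5, ATG7, ATG12, ATG16L1, GABARAP, GABARAPL1, GABARAPL2 and MAP1LC3B). Each gene was read from 1 probe set, the one with the highest mean over the 18 arrays among those that the platform annotation gives to that symbol alone. Such a probe set existed for 38 of the 39 genes. GLB1 had none, because its probe set also names TMPPE, and it was left out. Of the 38, 37 lay above the filter on low levels and were tested among 12376 genes, of 19775 genes with such a probe set. TFEB lay below it.

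U251, a long-established line of human glioblastoma cells, was grown in RPMI medium with 5% serum. The cells received enzastaurin, which was developed to block the beta form of protein kinase C, or its solvent DMSO, in a study whose title asks about GSK3 inhibition and the death of glioma cells. RNA was taken after 4, 10 and 18 h, which gives 6 groups (DMSO or enzastaurin at each time) of 3 arrays each. The labels name 1 cell line, give no dose and do not say whether the arrays of a group came from separate cultures, so the p-values measure the spread between these arrays, which may be technical. RNA was measured in bulk, so fewer responding cells and less RNA per cell cannot be told apart.

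All values are array intensities on a linear scale, which the authors had scaled so that the 2% trimmed mean of each array lay between 498.2 and 498.5. Array medians lay between 99.2 and 125.9. The glioma markers VIM (24370.0 to 38580.0), CD44 (14633.3 to 23473.0) and SOX2 (1396.0 to 4537.6) were bright on every array, whereas the astroglial markers GFAP (5.0 to 101.2) and S100B (3.1 to 35.0) lay below the level filter. Of the leukocyte markers, PTPRC, AIF1, CD14 and CD163 lay below it too, whereas CSF1R (67.7 to 186.7) and CD3E (22.6 to 229.3) passed it. PECAM1 of endothelium (255.0 to 406.9) and SNAP25 of neurons (179.2 to 369.9) passed it as well. The other endothelial markers, CDH5 and VWF, and the other neuronal markers, RBFOX3 and SYP, lay below it. So did EPCAM, CDH1 and KRT19 of epithelium. The summed leukocyte markers ranged from 379.0 to 518.4 on the DMSO arrays at 18 h and from 385.4 to 700.0 on the enzastaurin arrays at 18 h, so that the groups overlapped.

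Lysosomes are acidic organelles in which enzymes digest proteins, sugars and lipids, and a rotary proton pump, the V-ATPase, keeps their lumen acidic. Autophagy brings cytoplasm and worn organelles to them in a closed membrane, whose growth needs the ULK1 and BECN1 complexes, the WIPI proteins and the attachment of LC3 and GABARAP proteins to lipid. TFEB, TFE3 and MITF are basic helix-loop-helix factors that bind an E-box motif known as the CLEAR element near many lysosomal genes. The kinase mTORC1 on the lysosomal surface holds them in the cytoplasm when nutrients are plentiful, so their activity is set largely by location rather than by their RNA level.

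The promoter sequences of 4 genes, whose levels are described further on, show where the E-box sequence CACGTG occurs. These letters alone do not identify a CLEAR element. NEU1 and ATP6V0D1 are the called genes with a match, LAMP1 has the most matches, and NPC1 is a called gene with none. Each run is the 250 bases before the RefSeq start site (GRCh38.p14) on the strand of the gene, and capitals mark CACGTG. NEU1 lies at chr6:31862822-31863071 (minus strand), ATP6V0D1 at chr16:67481158-67481407 (minus strand), LAMP1 at chr13:113296989-113297238 (plus strand) and NPC1 at chr18:23586507-23586756 (minus strand).
NEU1: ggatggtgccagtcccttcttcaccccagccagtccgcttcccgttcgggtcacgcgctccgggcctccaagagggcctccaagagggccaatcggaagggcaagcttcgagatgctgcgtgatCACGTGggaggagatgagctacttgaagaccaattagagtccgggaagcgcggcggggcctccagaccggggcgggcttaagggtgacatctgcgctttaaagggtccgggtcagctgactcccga
ATP6V0D1: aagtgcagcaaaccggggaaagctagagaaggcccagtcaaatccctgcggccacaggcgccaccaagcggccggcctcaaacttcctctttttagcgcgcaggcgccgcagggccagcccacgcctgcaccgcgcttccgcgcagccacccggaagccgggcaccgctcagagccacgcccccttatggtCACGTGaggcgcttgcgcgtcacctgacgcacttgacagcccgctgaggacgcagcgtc
LAMP1: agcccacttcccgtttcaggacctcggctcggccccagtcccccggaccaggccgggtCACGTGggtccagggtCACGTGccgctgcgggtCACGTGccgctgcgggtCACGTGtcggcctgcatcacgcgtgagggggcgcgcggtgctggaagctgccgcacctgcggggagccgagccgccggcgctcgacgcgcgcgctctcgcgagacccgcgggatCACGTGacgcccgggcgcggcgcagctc
NPC1: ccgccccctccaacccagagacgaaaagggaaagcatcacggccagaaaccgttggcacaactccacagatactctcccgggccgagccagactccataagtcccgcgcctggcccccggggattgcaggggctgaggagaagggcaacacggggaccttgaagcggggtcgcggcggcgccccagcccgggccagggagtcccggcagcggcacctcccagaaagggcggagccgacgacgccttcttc

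RefSeq windows from 250 bases before to 50 after the start site were matched by symbol for 30 of the 39 genes. CACGTG, which reads the same on both strands, was found in the windows of 8 of these 30 genes (26.7%). The 8 are CTSA, CTSD, NEU1, GAA, LAMP1, MCOLN1, ATP6V0D1 and ATG3. It occurred in 12.5% of the tested genes that have a window and in 8.77% of all genes that have one. The longer form TCACGTG, which contains CACGTG and was searched on both strands, was found in the same 8 genes, beside 7.11% of tested genes. By role, a match was found in 4 of 9 enzyme and lumen genes, 2 of 3 membrane genes, 1 of 2 pump genes and 1 of 9 conjugation genes, and in none of the 4 initiation genes or 3 regulators with a window. LAMP1 held 6 matches, of which 5 lie wholly before its start site and are shown. The match began 126 bases before the start site in NEU1 and 59 bases before it in ATP6V0D1. These are matches of letters and do not show binding.

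**Figure D1:**
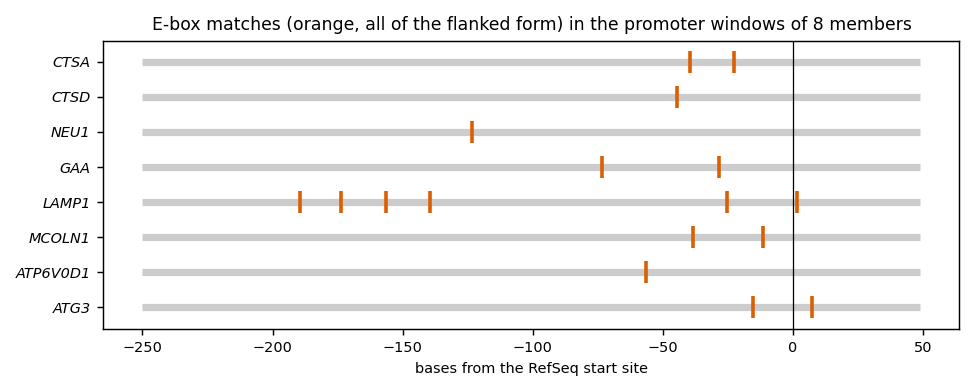
Positions of CACGTG in the promoter windows of the 8 genes that hold it, in bases from the RefSeq start site; the grey bar is the window searched and each orange mark is 1 match. LAMP1 has 6 matches, and every match is also TCACGTG on at least 1 strand.

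More of these genes were called with enzastaurin at 18 h than at 4 h. The share called among all genes tested rose over these times as well. At 4 h none of the 37 tested genes was called, at 10 h 3 were and at 18 h 11 were, 7 higher and 4 lower with the drug. The genes that rose at 18 h were mostly lysosomal: the sialidase NEU1 (2.34-fold), the cholesterol carriers NPC1 (1.70-fold) and NPC2 (1.27-fold), the pump subunits ATP6V0D1 (1.39-fold) and ATP6V1H (1.37-fold) and the galactosidase GLA (1.19-fold), together with MAP1LC3B (1.21-fold), an LC3 gene. The genes that fell were all from autophagy: WIPI2 (1.60-fold), GABARAPL1 (1.49-fold), GABARAP (1.15-fold) and ATG5 (1.14-fold). Of the 21 tested lysosome and pump genes 6 rose and 0 fell, with a median log2 change of 0.18, and of the 14 autophagy genes 1 rose and 4 fell, with a median of -0.11. Over all genes tested the median at 18 h was 0.00.

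A log2 change is the difference between group means of log2(intensity + 16), which understates the change of dim genes, and folds are on that scale. A gene is called at a limma p-value, adjusted by Benjamini-Hochberg over all 12376 genes, under 0.05. Among all genes tested 1.81% were called at 4 h, 8.45% at 10 h (3.77% higher, 4.69% lower) and 16% at 18 h (8.10% higher, 7.90% lower). Against these shares, 0 of 37 were called at 4 h, 3 of 37 at 10 h (1 higher, 2 lower) and 11 of 37 at 18 h (7 higher, 4 lower). At 4 h and 10 h the share called in either direction was no larger among the 37 than among all genes tested. At 4 h 5 of the 37 had an unadjusted p under 0.05. The intensities of the drug and solvent arrays did not overlap in 4 genes at 4 h, 12 at 10 h and 17 at 18 h, beside 18.3%, 26.8% and 29.7% of all genes tested. The median standard error of a gene's log2 change was 0.085 among the 37 and 0.134 among all genes tested.

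**Figure D2:**
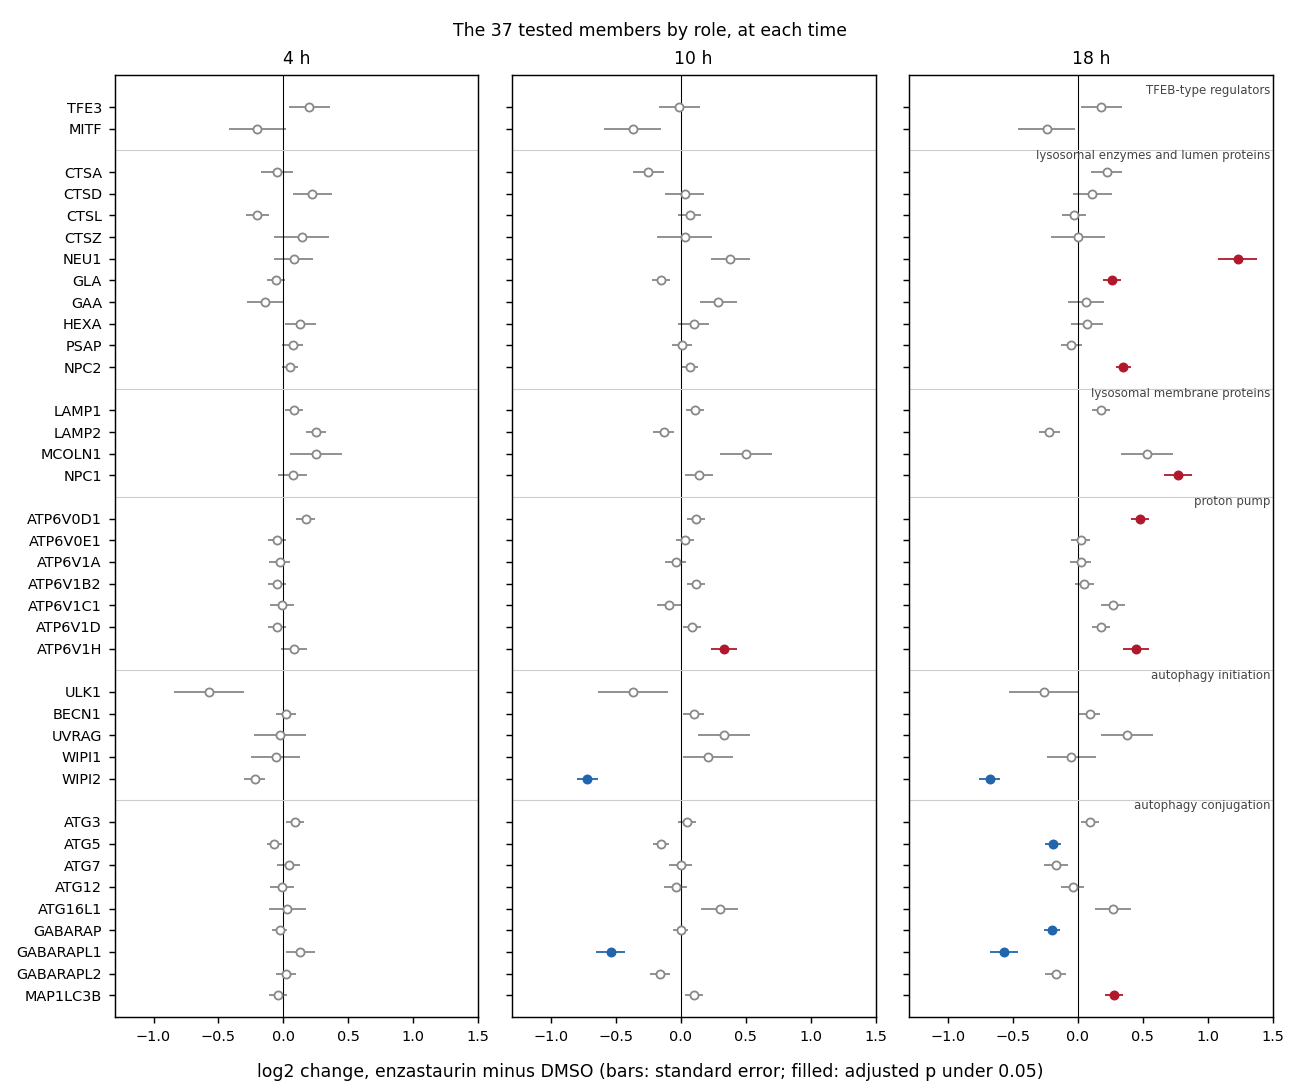
Log2 change of each of the 37 tested genes with enzastaurin at 4, 10 and 18 h, with its standard error, ordered by role; filled points have an adjusted p under 0.05. At 18 h 7 filled points lie above 0 and 4 below, and at 4 h there are none.

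The transcription factors gave no call at any time. TFEB, whose probe set averaged 47.2 over the 18 arrays, was too dim to test. TFEB in DMSO read 27.2, 32.2 and 48.7 at 4 h, 52.0, 56.0 and 91.4 at 10 h, and 29.6, 24.9 and 102.5 at 18 h. TFEB with enzastaurin read 17.0, 25.2 and 40.3 at 4 h, 111.3, 97.1 and 26.4 at 10 h, and 89.5, 59.2 and 28.1 at 18 h. Its drug and solvent arrays overlapped at every time. TFE3 was well above the filter. TFE3 in DMSO read 892.9, 1039.3 and 1047.6 at 4 h, 1039.2, 856.7 and 820.2 at 10 h, and 786.6, 1128.9 and 723.6 at 18 h. TFE3 with enzastaurin read 1401.5, 1037.9 and 1008.8 at 4 h, 871.2, 983.9 and 838.9 at 10 h, and 1157.8, 963.3 and 846.6 at 18 h. Its groups overlapped at each time too, and its log2 change was 0.20 at 4 h, -0.01 at 10 h and 0.18 at 18 h (SE 0.16, n = 3 arrays per group). Averaging its probe sets gave -0.17 in place of 0.18 at 18 h, without a call. MITF is best known as the lineage factor of pigment cells. MITF in DMSO read 318.7, 224.5 and 257.0 at 4 h, 365.9, 390.2 and 381.7 at 10 h, and 228.4, 408.7 and 338.5 at 18 h. MITF with enzastaurin read 213.4, 218.6 and 253.6 at 4 h, 227.5, 324.5 and 326.5 at 10 h, and 185.9, 307.2 and 323.8 at 18 h. MITF arrays with the drug lay below the DMSO arrays without overlap at 10 h only, where its log2 change of -0.37 (SE 0.22) had an adjusted p of 0.36. At 4 h and 18 h its log2 changes were -0.20 and -0.24. Its second probe set, nearly as bright, changed by 0.5 at 4 h, -0.32 at 10 h and -0.16 at 18 h. The third, below the level filter, changed by -0.86, 0.52 and -0.07.

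NEU1, the sialidase that takes sialic acid off glycoproteins and gangliosides, had the largest change of the 37 genes at 18 h. NEU1 in DMSO read 756.8, 694.7 and 948.2 at 4 h, 788.3, 636.4 and 768.5 at 10 h, and 879.3, 661.1 and 919.8 at 18 h. NEU1 with enzastaurin read 782.5, 911.5 and 833.9 at 4 h, 1071.2, 780.6 and 1023.3 at 10 h, and 1716.8, 1783.3 and 2326.9 at 18 h. At 18 h the lowest drug array lay above the highest DMSO array, while at 4 h and 10 h the groups overlapped. Its mean was 1942.3 ± 334.7 (SD, n = 3) with enzastaurin and 820.1 ± 139.2 (SD, n = 3) with DMSO at 18 h, a log2 change of 1.23 (SE 0.15, adjusted p = 6.4e-06). The change at 10 h, 0.38, was not called (adjusted p = 0.14). CTSA, the protective protein of NEU1 in the lysosome, had a log2 change of 0.22 at 18 h (SE 0.12, adjusted p = 0.24).

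NPC1 and NPC2 work in turn to move cholesterol out of the lysosome, NPC2 in the lumen and NPC1 in the membrane. NPC1 in DMSO read 646.4, 603.5 and 586.8 at 4 h, 780.7, 809.5 and 628.5 at 10 h, and 608.6, 718.5 and 827.2 at 18 h. NPC1 with enzastaurin read 634.2, 651.8 and 639.4 at 4 h, 800.2, 876.0 and 759.1 at 10 h, and 1230.0, 1131.8 and 1318.2 at 18 h. The drug arrays at 18 h lay above every DMSO array, and those at 4 h and 10 h did not separate. The log2 change of NPC1 at 18 h was 0.77 (SE 0.11, adjusted p = 6.2e-05). Its other probe sets, all below the level filter, changed by 0.98, 1.14 and 0.57 at 18 h. They changed by 0.21, 1.5 and 0.01 at 4 h and by 1.43, 0.16 and -0.28 at 10 h. These dim probe sets therefore did not share the time course of the brightest one. NPC2 is the soluble partner, which hands cholesterol to NPC1. NPC2 in DMSO read 6412.8, 6261.0 and 6577.2 at 4 h, 5721.6, 5932.2 and 5623.9 at 10 h, and 5098.8, 5547.1 and 5353.1 at 18 h. NPC2 with enzastaurin read 6368.0, 6603.1 and 6979.8 at 4 h, 5792.8, 6017.4 and 6355.7 at 10 h, and 6330.7, 6702.5 and 7337.0 at 18 h. All drug arrays of NPC2 were above all DMSO arrays at 18 h, and the groups overlapped at 4 h and 10 h. Its log2 change was 0.35 (SE 0.06, adjusted p = 0.00056).

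GLA encodes the alpha-galactosidase that is missing in Fabry disease. GLA in DMSO read 2063.5, 2080.5 and 2034.0 at 4 h, 2492.7, 2659.8 and 2570.0 at 10 h, and 2827.0, 2759.0 and 2797.5 at 18 h. GLA with enzastaurin read 1929.1, 1933.5 and 2066.9 at 4 h, 2225.8, 2277.2 and 2452.4 at 10 h, and 3300.9, 3095.5 and 3647.8 at 18 h. The drug arrays were the lower group at 10 h and the higher group at 18 h, without overlap at either time. At 10 h the log2 change was -0.15 and not called (SE 0.07, adjusted p = 0.19), and at 18 h GLA rose by 0.26 (SE 0.07, adjusted p = 0.0098). That call was lost without the third enzastaurin array at 18 h (0.19, adjusted p = 0.0676) and under 2 of 11 other settings (adjusted p up to 0.0934). The other 7 tested enzyme and lumen genes, CTSA, CTSD, CTSL, CTSZ, GAA, HEXA and PSAP, were called at none of the 3 times, and their log2 changes at 18 h ran from -0.05 to 0.22.

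Subunit d1 of the membrane sector of the pump, ATP6V0D1, and subunit H of its outer, ATP-splitting sector, ATP6V1H, rose with the drug. ATP6V0D1 in DMSO read 4072.0, 4530.4 and 4334.7 at 4 h, 4863.7, 4710.3 and 4787.8 at 10 h, and 4987.9, 4457.4 and 5228.6 at 18 h. ATP6V0D1 with enzastaurin read 4732.8, 4874.9 and 4940.8 at 4 h, 4856.0, 5153.3 and 5599.0 at 10 h, and 6361.2, 6730.3 and 7317.0 at 18 h. Drug arrays lay above DMSO arrays at 4 h and at 18 h, and the groups overlapped at 10 h. The log2 change of ATP6V0D1 was 0.17 at 4 h (adjusted p = 0.31), 0.12 at 10 h (adjusted p = 0.38) and 0.48 at 18 h (SE 0.07, adjusted p = 6.7e-05). ATP6V1H in DMSO read 1372.2, 1571.4 and 1563.0 at 4 h, 1548.0, 1658.7 and 1624.4 at 10 h, and 1776.5, 1554.0 and 1435.1 at 18 h. ATP6V1H with enzastaurin read 1347.5, 1662.1 and 1773.8 at 4 h, 1917.3, 2190.8 and 1981.6 at 10 h, and 2129.4, 2178.9 and 2203.7 at 18 h. The groups of ATP6V1H were separate at 10 h and 18 h. It rose by 0.33 at 10 h (SE 0.10, adjusted p = 0.037) and by 0.45 at 18 h (SE 0.10, adjusted p = 0.0021). Its dimmer probe sets changed by 0.01 and 0.08 at 18 h, and with the probe sets averaged neither call held (-0.03 at 10 h, 0.18 at 18 h). The 10 h call also failed without any 1 of 5 of its 6 arrays, with an adjusted p of up to 0.152, and under 3 further settings.

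All 7 tested pump subunits had a log2 change above 0 at 18 h, with a median of 0.18, beside 6216 of all 12376 genes tested. The 5 that were not called ranged from 0.02 to 0.27. ATP6V1C1 had 0.27 (SE 0.09, adjusted p = 0.058) and ATP6V1D 0.18 (SE 0.07, adjusted p = 0.084), both with groups that did not overlap, whereas ATP6V0E1, ATP6V1A and ATP6V1B2 had 0.02, 0.02 and 0.05.

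Among the membrane proteins only NPC1 was called at a given time. MCOLN1, the calcium channel mucolipin 1, averaged 785.9 ± 57.8 (SD, n = 3) with the drug and 538.8 ± 17.0 (SD, n = 3) with DMSO at 18 h, without overlap, a log2 change of 0.53 (SE 0.20, adjusted p = 0.087). Over the 3 times together its average change of 0.43 was called (SE 0.12, adjusted p = 0.014). LAMP1 and LAMP2 are heavily glycosylated proteins that line the lysosomal membrane. LAMP1 had a log2 change of 0.18 at 18 h (SE 0.07, adjusted p = 0.10), which was called when its probe sets were averaged (0.32, adjusted p = 0.00192). LAMP2 had 0.25 at 4 h (SE 0.08, adjusted p = 0.15) and -0.22 at 18 h (SE 0.08, adjusted p = 0.079), with separate groups at each of these times. Its other probe sets changed by 0.05, -0.10 and -0.01 at 18 h.

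**Figure D3:**
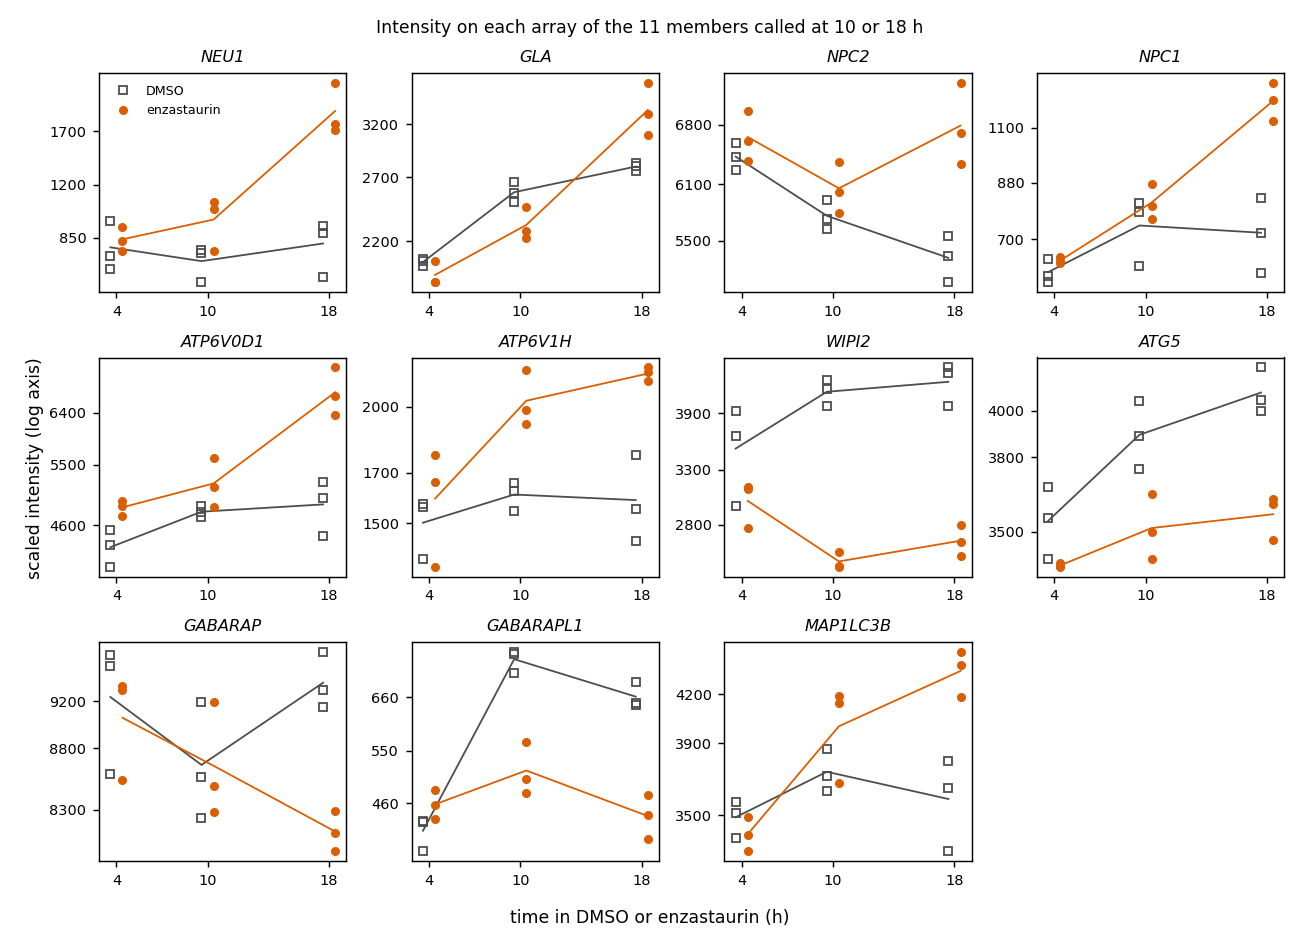
Intensity on each array (log axis) of the 11 genes called at 10 h or 18 h; open squares are DMSO, filled circles enzastaurin, and lines join the group means at 4, 10 and 18 h. NEU1 reaches 1942.3 on average with the drug at 18 h against 820.1 with DMSO, and WIPI2 lies at 2670.3 against 4282.9.

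WIPI2 binds the lipid made by the BECN1 complex and brings ATG16L1 to the growing membrane. WIPI2 in DMSO read 2961.3, 3648.3 and 3925.6 at 4 h, 4191.4, 4301.8 and 3980.0 at 10 h, and 4391.8, 3987.4 and 4469.6 at 18 h. WIPI2 with enzastaurin read 3113.2, 3134.4 and 2769.6 at 4 h, 2471.7, 2480.2 and 2581.5 at 10 h, and 2551.7, 2660.9 and 2798.3 at 18 h. At 4 h the groups overlapped, and at 10 h and 18 h every drug array lay below every DMSO array. WIPI2 fell by 0.72 on the log2 scale at 10 h (SE 0.08, adjusted p = 9.1e-06) and by 0.68 at 18 h (SE 0.08, adjusted p = 7.6e-06). Its next brightest probe set fell by 0.65 at 18 h, and the 3 dimmer ones changed by -0.39, -0.24 and 0.55. With all 5 averaged the calls were lost (-0.33 at 10 h with adjusted p = 0.129, and -0.28 at 18 h with adjusted p = 0.15). The other initiation genes, ULK1, BECN1, UVRAG and WIPI1, were not called with the drug, and their changes at 18 h ran from -0.26 to 0.38.

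GABARAPL1 and GABARAP encode small proteins that are attached to lipid on the growing membrane and bind cargo receptors. GABARAPL1 in DMSO read 433.1, 390.7 and 431.9 at 4 h, 770.5, 717.5 and 765.6 at 10 h, and 642.1, 647.0 and 694.6 at 18 h. GABARAPL1 with enzastaurin read 481.4, 457.4 and 435.4 at 4 h, 566.8, 499.2 and 476.1 at 10 h, and 406.7, 441.1 and 472.4 at 18 h. In DMSO GABARAPL1 was higher at 10 h and 18 h than at 4 h, whereas with the drug its 4 h and 18 h arrays overlapped. At 4 h the drug arrays lay just above the DMSO arrays, and at 10 h and 18 h all lay below them. GABARAPL1 fell by 0.54 on the log2 scale at 10 h (SE 0.11, adjusted p = 0.0023) and by 0.57 at 18 h (SE 0.11, adjusted p = 0.00056). Its other probe set changed by -0.35 at 4 h, against 0.13 for the brighter one, and by -0.55 at 10 h and -0.70 at 18 h. Their suffix marks probes shared between transcripts, and signal of the near-identical GABARAPL3 cannot be told apart from it.

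GABARAP in DMSO read 9517.9, 8587.4 and 9612.7 at 4 h, 8230.6, 8557.7 and 9192.9 at 10 h, and 9646.2, 9153.6 and 9296.7 at 18 h. GABARAP with enzastaurin read 8536.3, 9336.2 and 9301.9 at 4 h, 8484.9, 8282.9 and 9191.1 at 10 h, and 7978.7, 8116.6 and 8288.1 at 18 h. GABARAP separated at 18 h only, with the drug arrays below, and fell by 0.20 (SE 0.06, adjusted p = 0.035). This call was lost on leaving out any 1 of its 6 arrays, with an adjusted p of up to 0.123, and under 5 of 11 other settings. GABARAPL2, the third gene of this subfamily, had -0.17 at 18 h (SE 0.08, adjusted p = 0.18).

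ATG5 is joined to ATG12 in the enzyme complex that attaches LC3 and GABARAP proteins to lipid. ATG5 in DMSO read 3678.5, 3396.7 and 3552.7 at 4 h, 3891.2, 4044.1 and 3748.8 at 10 h, and 4195.1, 4047.9 and 3998.8 at 18 h. ATG5 with enzastaurin read 3367.2, 3380.7 and 3369.2 at 4 h, 3394.7, 3497.1 and 3650.2 at 10 h, and 3469.8, 3626.8 and 3607.3 at 18 h. Drug arrays lay below DMSO arrays at all 3 times, by a small margin at 4 h. Its log2 change was -0.07 at 4 h (adjusted p = 0.66), -0.15 at 10 h (adjusted p = 0.12) and -0.19 at 18 h (SE 0.06, adjusted p = 0.022). Its other probe sets, both over the level filter, changed by -0.22 and -0.27 at 18 h. At 4 h they changed by -0.14 and 0.03 and at 10 h by -0.16 and 0.39, so the dimmest had the other sign at these times. The call at 18 h was lost without the first DMSO array or without the first enzastaurin array, with an adjusted p of up to 0.0872, and under 3 of 11 other settings, with one of up to 0.151.

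MAP1LC3B, whose lipid-bound protein is the usual marker of autophagosomes, was the autophagy gene that rose. MAP1LC3B in DMSO read 3382.8, 3512.7 and 3573.5 at 4 h, 3632.9, 3712.1 and 3866.8 at 10 h, and 3317.0, 3645.3 and 3799.1 at 18 h. MAP1LC3B with enzastaurin read 3397.1, 3319.0 and 3491.2 at 4 h, 4189.4, 4145.1 and 3672.7 at 10 h, and 4477.6, 4181.5 and 4390.5 at 18 h. The groups overlapped at 4 h and 10 h and were separate at 18 h, where it rose by 0.28 (SE 0.07, adjusted p = 0.0049). Its other probe set changed by 0.09 at 18 h, and signal of the near-identical MAP1LC3B2 cannot be told apart from either. The call was lost with array medians subtracted (adjusted p = 0.14). ATG3, ATG7, ATG12, ATG16L1 and GABARAPL2 were not called, with changes from -0.17 to 0.27 at 18 h.

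Over the 3 times together, which sets 9 arrays with the drug against 9 with DMSO, 11 of the 37 genes were called, 8 higher and 3 lower, beside 18.5% of all genes tested (9.07% higher, 9.44% lower). Higher were NEU1 (0.56), MCOLN1 (0.43), NPC1 (0.32), ATP6V1H (0.29), ATP6V0D1 (0.25), NPC2 (0.16), LAMP1 (0.12) and MAP1LC3B (0.11), as average log2 changes. Lower were WIPI2 (-0.54), GABARAPL1 (-0.33) and ATG5 (-0.14). For LAMP1 (adjusted p = 0.0494) the call was gone when any 1 of 13 of the 18 arrays was left out, and for MAP1LC3B (adjusted p = 0.0417) when any 1 of 12 was. With probe sets averaged ATP6V1H went to 0.10 (adjusted p = 0.605), ATG5 to -0.09 (adjusted p = 0.159) and MAP1LC3B to 0.06 (adjusted p = 0.315), and ATG5 was also lost with array medians subtracted (adjusted p = 0.217).

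The drug effect itself differed between 4 h and 18 h in 8 of the 37 genes, 5 of them upward and 3 downward, beside 7.78% of all genes tested (4.07% upward, 3.71% downward). NEU1, NPC1, GLA, NPC2 and MAP1LC3B had a more positive effect at 18 h, and GABARAPL1, LAMP2 and WIPI2 a more negative one. From 4 h to 10 h it differed in WIPI2 and GABARAPL1 (2 of 37, both downward, beside 1.41% of all genes, 0.808% upward and 0.598% downward), and from 10 h to 18 h in NEU1, GLA and NPC1 (3 of 37, all upward, beside 2.23% of all genes, 1.33% upward and 0.905% downward). The calls of GLA and NPC2 for 4 h against 18 h were lost on leaving out any 1 of 10 of their 12 arrays, that of MAP1LC3B on leaving out any 1 of 9 and that of WIPI2 on leaving out any 1 of 4 (-0.34 without the first DMSO array at 4 h, adjusted p = 0.0512). On averaging probe sets LAMP2 went to -0.20 (adjusted p = 0.258), WIPI2 to -0.14 (adjusted p = 0.759), NPC1 to 0.42 (adjusted p = 0.526) and MAP1LC3B to 0.18 (adjusted p = 0.246), and with array medians subtracted NPC1 was lost too (0.58, adjusted p = 0.096), as were GLA, NPC2 and MAP1LC3B. NEU1 and GABARAPL1 kept this call under all 11 other settings and without any 1 of the 12 arrays.

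The solvent cultures changed with time as well. Between 4 h and 18 h in DMSO, 9 of the 37 genes were called, 7 higher and 2 lower, beside 20.3% of all genes tested (11.3% higher, 9% lower). The groups did not overlap in 13 of the 37, beside a similar share of all genes, 34.6%. GABARAPL1 rose by 0.64 (SE 0.11, adjusted p = 0.00018), WIPI2 by 0.29 (SE 0.08, adjusted p = 0.017) and ATG5 by 0.20 (SE 0.06, adjusted p = 0.013). Also higher were GLA (0.44), GABARAPL2 (0.30) and the pump subunits ATP6V1A (0.45) and ATP6V1C1 (0.48). The acid glucosidase GAA fell by 0.45 (SE 0.14, adjusted p = 0.031) and NPC2 by 0.27 (SE 0.06, adjusted p = 0.0046). The GAA call was lost without any 1 of 4 of its 6 arrays, that of WIPI2 without any 1 of 3 (0.18 without the first DMSO array at 4 h), that of ATG5 without any 1 of 2 and that of GABARAPL2 without the first DMSO array at 4 h (0.24, adjusted p = 0.0826). With probe sets averaged ATG5 turned to -0.11, ATP6V1C1 went to 0.15 (adjusted p = 0.319) and WIPI2 to 0.19 (adjusted p = 0.345), and with array medians subtracted GAA, NPC2, WIPI2, ATG5 and GABARAPL2 were lost.

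In the enzastaurin cultures 11 of the 37 were called between 4 h and 18 h, 10 higher and 1 lower, beside 30.0% of all genes tested (16.4% higher, 13.6% lower), and 21 of the 37 did not overlap, beside 40.3%. The share called in either direction was thus no larger among the 37 than among all genes tested. NEU1 rose by 1.18 on the log2 scale, NPC1 by 0.92, GLA by 0.75 and MAP1LC3B by 0.35. The pump subunits rose in 5 of 7 cases: ATP6V1C1 (0.76), ATP6V1A (0.50), ATP6V0D1 (0.48), ATP6V1H (0.45) and ATP6V1D (0.41). ULK1, the kinase that starts autophagy, rose by 1.02 (SE 0.27, adjusted p = 0.0065), from a mean of 98.1 to 204.1, and in DMSO it went from 147.1 to 245.0 (0.70, adjusted p = 0.071). LAMP2 fell by 0.32 (SE 0.08, adjusted p = 0.0051). ULK1 lost its call without the second enzastaurin array at 4 h (0.66). With probe sets averaged ATP6V1H turned to -0.02, ATP6V1D went to 0.13 (adjusted p = 0.566), NPC1 to 0.40 (adjusted p = 0.193) and ATP6V1C1, still called, to 0.28, and with array medians subtracted ATP6V1H and MAP1LC3B were lost.

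Set side by side, the 2 time courses place the called genes in different ways. NEU1 had 0.03 in DMSO and 1.18 with the drug, and NPC1 had 0.22 and 0.92, with groups that overlapped in DMSO and were separate with the drug. GABARAPL1 had 0.64 in DMSO and -0.06 with the drug, and WIPI2 had 0.29 and -0.17, so their drug effect at 18 h is measured against a DMSO level that had risen. NPC2 had -0.27 in DMSO and 0.03 with the drug, measured against a DMSO level that had fallen. These comparisons and the drug effects at 4 h and 18 h share the same arrays and are not independent of each other.

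**Figure D4:**
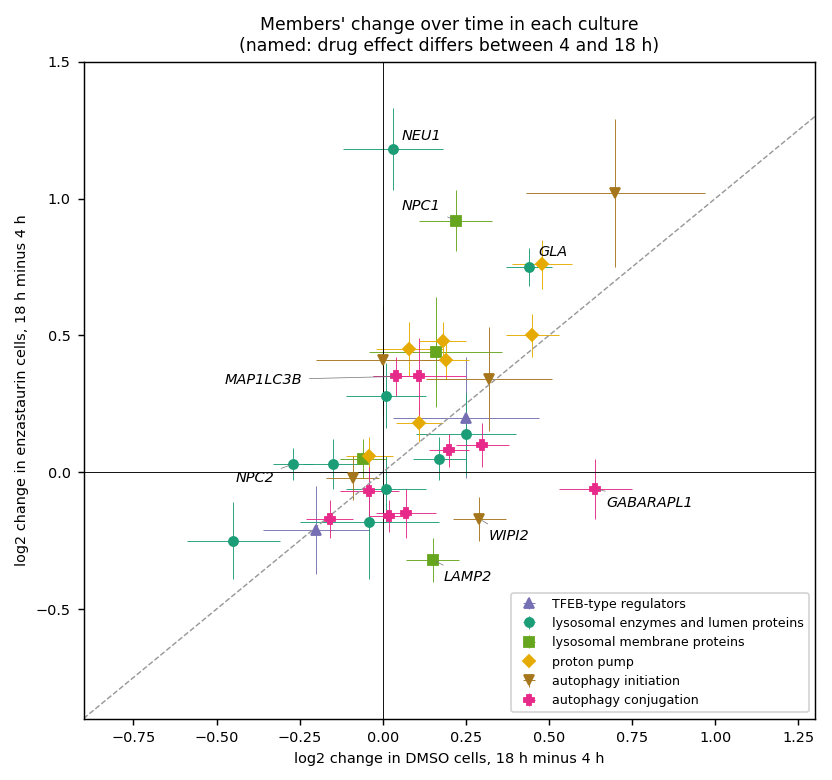
Log2 change from 4 h to 18 h of each of the 37 genes in DMSO (x axis) and with enzastaurin (y axis), with standard errors; the dashed line marks equal change, and the 8 named genes are those whose drug effect differed between 4 h and 18 h. NEU1 lies at 0.03 and 1.18, and GABARAPL1 at 0.64 and -0.06.

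Of the 8 genes with CACGTG in the window, all 8 had a log2 change above 0 at 18 h, with a median of 0.20 and a range from 0.06 to 1.23, and 2 of them (NEU1 and ATP6V0D1) were called. Of the 20 tested genes with a window and no match, 8 had a change above 0, with a median of -0.04, and 8 were called, 4 higher and 4 lower. Of all 12376 genes tested, 6216 had a change above 0 at 18 h. At 4 h the medians were 0.08 and -0.02, and at 10 h 0.11 and 0.00. The genes with a match are mostly lysosomal and those without mostly from autophagy, so these medians compare roles as well as motifs. Among lysosome and pump genes alone, those with a match ran from 0.06 (GAA) to 1.23 (NEU1) at 18 h. Between them lay CTSD (0.11), LAMP1 (0.18), CTSA (0.22), ATP6V0D1 (0.48) and MCOLN1 (0.53). Those with a window and no match ran from -0.03 (CTSL) to 0.77 (NPC1), with CTSZ at -0.0, ATP6V1D at 0.18, GLA at 0.26 and NPC2 at 0.35. Within these roles the values with and without a match thus lay among each other. Called higher were NEU1 and ATP6V0D1 with a match and GLA, NPC1 and NPC2 without one. A part of the motif in the changes was not tested. GLA, NPC1, NPC2 and MAP1LC3B rose without a match in these windows.

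Other genes of the same pathways were read from lists of 155 further genes, also chosen with earlier results of these data known. Of these, 136 were tested. At 18 h 26 of the 136 were higher and 10 lower, beside 8.10% higher and 7.90% lower of all genes tested. At 10 h the counts were 10 and 8, beside 3.77% and 4.69%. At 4 h the counts were 2 and 1, beside 0.558% and 1.25%. Among 32 other lysosomal enzymes 2 rose at 18 h, no larger a share than the 8.10% of all genes called higher. These were the peptidase TPP1 (0.63, SE 0.09) and the fucosidase FUCA1 (0.64, SE 0.10), and the median over the list was 0.02. Among 15 other membrane proteins 5 rose and 3 fell, with a median of 0.03. The cystine transporter CTNS (0.82), TMEM192 (0.57), the chloride exchanger CLCN7 (0.47) and CLN3 (0.44) were among those that rose. Among 8 other pump subunits 5 rose and 0 fell, with a median of 0.31, including ATP6V0A2 (0.66), the accessory subunit ATP6AP1 (0.54), ATP6V1E1 (0.34) and ATP6V0B (0.33).

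Among 32 other autophagy genes 3 rose and 7 fell at 18 h, with a median of -0.18, and at 10 h 1 rose and 7 fell. Of all genes tested 8.10% rose and 7.90% fell at 18 h, and 3.77% rose and 4.69% fell at 10 h. The mitophagy receptor BNIP3L fell by 0.69 on the log2 scale at 10 h and by 1.23 at 18 h (SE 0.10, adjusted p = 2.8e-08). The cargo receptor NBR1 fell by 0.66 at 10 h and 1.22 at 18 h (SE 0.13, adjusted p = 1.1e-06). RB1CC1, the scaffold of the ULK1 complex, fell by 0.45 and 0.70, and the cargo receptor TAX1BP1 by 0.27 and 0.57. The list also moved with time in DMSO, where 13 of the 32 rose and 0 fell between 4 h and 18 h, with a median of 0.24.

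Among 27 genes that control TFEB through mTORC1 and nutrients, 2 rose at 4 h, 6 at 10 h and 7 at 18 h, and 0 fell at any of them. Of all genes tested 0.558%, 3.77% and 8.10% were called higher at these times. The mTORC1 inhibitor DDIT4 rose by 2.25 on the log2 scale at 4 h (adjusted p = 8.2e-10), 1.84 at 10 h and 1.11 at 18 h. SESN2, a leucine sensor that restrains mTORC1, rose by 0.52, 1.93 and 1.18. LAMTOR3, part of the Ragulator scaffold on the lysosome, and FNIP2, a folliculin partner, rose by 0.62 and 0.84 at 18 h. Among 22 genes of sorting and transport 4 rose at 18 h and 0 fell, with a median of 0.14: the mannose 6-phosphate receptors IGF2R (0.77) and M6PR (0.53), VPS18 (0.68) and the late endosomal GTPase RAB7A (0.36). With probe sets averaged, FUCA1, CTNS, CLN3, CLCN7, ATP6V0A2, FNIP2, VPS18 and RAB7A lost their calls, and RAB7A was left at 0.04; with array medians subtracted CLN3, ATP6V0B, ATP6V1E1 and RAB7A did. Leaving out the first DMSO array ended the calls of CLN3, ATP6V0B and ATP6V1E1, leaving out the third enzastaurin array those of CLN3, CLCN7 and ATP6V1E1, and leaving out the second array of either group that of CLCN7.

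**Figure D5:**
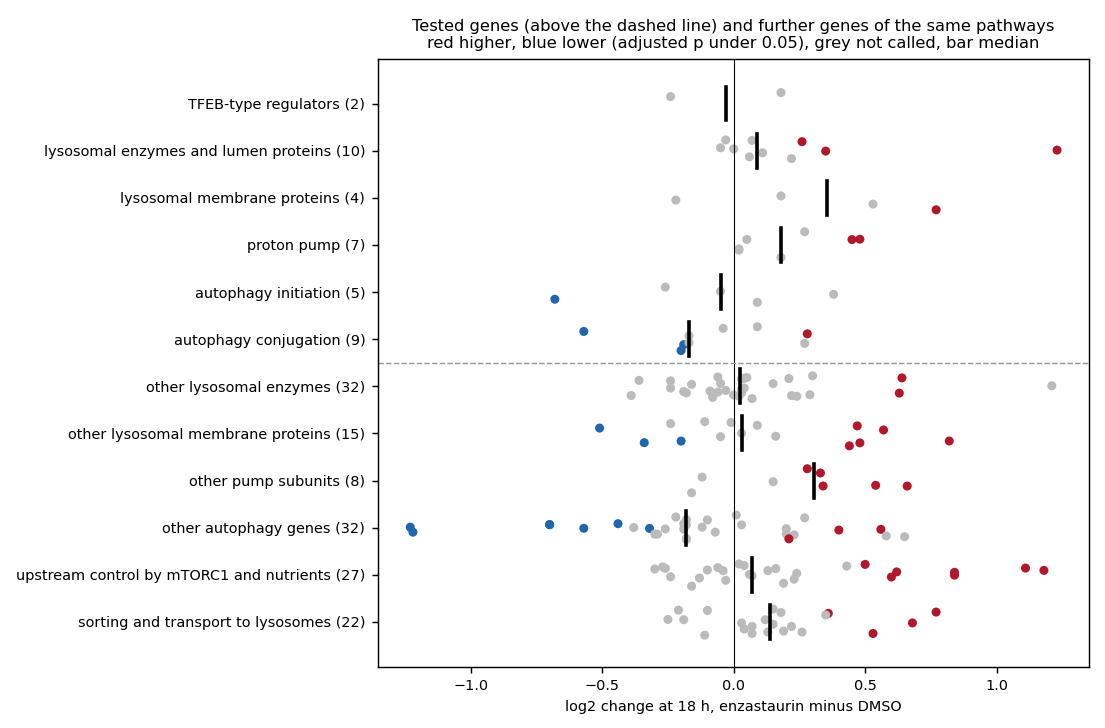
Log2 change at 18 h of every tested gene in the 6 groups of the 39 genes and in the 6 further lists; red points were called higher, blue lower, grey not called, and the bar is the median of the list. The other pump subunits have the highest median of the further lists, 0.31, and the other autophagy genes the lowest, -0.18.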

How the data were processed

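Total RNA of 18 samples of U251 cells was hybridised to Affymetrix HG-U133 Plus 2.0 arrays, 3 in each of 6 groups of treatment and time. The authors deposited linear intensity values of 54613 probe sets, made with GCOS 1.2 per the submitters' processing notes; the background and summary settings are not given in the sources used here. The scaling makes a change in total RNA per cell invisible. Of the probe sets, 41091 carried 1 gene symbol, 1801 several and 11721 none, and those with 1 were used. A gene whose mean level lay under the median over probe sets, an intensity of 102.0, was left out. Values were fitted as log2(intensity + 16) with limma 3.58.1 in R 4.3.3 (lmFit and eBayes with a trend, 1 mean per group, all 18 arrays), and p-values were adjusted by Benjamini-Hochberg over 12376 genes. The fit was tested on simulated data in which 200 of 12376 genes were changed at 18 h. It called 12% of those changed by 0.25 on the log2 scale, 54% at 0.5, 76% at 1 and 98% at 2. Of its 124 calls at 18 h 4 were false. Some changed genes were thus missed at each of these sizes, 1 and 2 on the log2 scale included. A gene that was not called may therefore still have changed, and not only by a small amount. In the data 1981 genes were called at 18 h, more than the 200 changed in the simulation. The genes followed here also had a smaller median standard error than all genes tested (0.085 against 0.134). The shares recovered therefore need not hold for them. No detection calls were used, so levels rest on 18 arrays and no depth applies.

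Members and lists were chosen with earlier results of these data known. Genes called with the drug at 1 time or more and the 3 regulators are given on every array; of each further list up to 4 genes with the smallest adjusted p at 18 h are named. Alternatives changed the offset (1 or 64), the level filter, the normalization, the probe set rule, array weights, the trend, the arrays fitted and the replicate block, and left out each array; those for the average effect and for single genes over time were chosen after seeing the data. Promoter windows come from RefSeq (GRCh38.p14).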

Additional observations from a re-analysis of the deposited data

Results flagged for a closer look

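In these genes the difference between enzastaurin and DMSO itself differed between times, by the contrast of the drug effects in the fit across all genes (limma, Benjamini-Hochberg adjusted p under 0.05, 3 arrays per group). Values are differences between log2 changes.

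From 4 h to 18 h the drug effect rose by 1.15 for NEU1 (SE 0.21, adjusted p = 0.0016), by 0.70 for NPC1 (SE 0.16, adjusted p = 0.0093), by 0.32 for GLA, by 0.31 for MAP1LC3B and by 0.30 for NPC2. Over the same interval it changed by -0.70 for GABARAPL1 (SE 0.15, adjusted p = 0.005), by -0.47 for LAMP2 (SE 0.12, adjusted p = 0.014) and by -0.46 for WIPI2 (SE 0.12, adjusted p = 0.02). Of these changes from 4 h to 18 h, those of NEU1 and GABARAPL1 kept their calls under every alternative run. With probe sets averaged WIPI2 went to -0.14 (adjusted p = 0.759), NPC1 to 0.42 (adjusted p = 0.526) and LAMP2 to -0.20 (adjusted p = 0.258), and WIPI2, GLA, NPC2 and MAP1LC3B were also lost on leaving out single arrays. From 4 h to 10 h it changed by -0.66 for GABARAPL1 (SE 0.15, adjusted p = 0.03) and by -0.51 for WIPI2 (SE 0.12, adjusted p = 0.041). From 10 h to 18 h it rose by 0.85 for NEU1 (SE 0.21, adjusted p = 0.038), by 0.63 for NPC1 (SE 0.16, adjusted p = 0.044) and by 0.41 for GLA (SE 0.09, adjusted p = 0.022). The alternatives were not run for the changes from 4 h to 10 h and from 10 h to 18 h.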

How the results depend on the processing

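The 18 h calls of NEU1, NPC1, NPC2, ATP6V0D1 and GABARAPL1 held under all 11 other settings and without any 1 of their 6 arrays. The number of genes called at 10 h was 1 in place of 3 with the probe sets of a gene averaged, and at 18 h it was 7 (5 higher, 2 lower) in place of 11 with array medians subtracted. For the change of the drug effect from 4 h to 18 h it was 8, and 5 without a level filter, 4 with array medians subtracted, 3 with probe sets averaged, 4 without the trend and 5 with only the groups compared. In DMSO from 4 h to 18 h it was 4 in place of 9 with array medians subtracted. Subtracting medians moved the median of all genes to 0.116 at 4 h and to -0.112 for the change of effect. Leaving out 1 array gave 0 to 1 call at 4 h (WIPI2 at -0.33 without the first DMSO array, adjusted p = 0.0328), 2 to 3 at 10 h, 9 to 11 at 18 h and 4 to 9 for the change of effect. It gave 7 to 9 for DMSO over time, 10 to 12 for enzastaurin over time and 9 to 11 for the average effect.

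Signs turned as follows, and the cause was not tested. TFE3 at 10 h went to 0.01 with array medians subtracted, 0.01 with probe sets averaged, 0.02 with array weights and 0.09, 0.01 and 0.04 without 1 array, in a range from -0.07 to 0.09. With probe sets averaged TFE3 at 18 h went to -0.17, ATP6V1H at 10 h to -0.03, ATG5 in DMSO over time to -0.11 and ATP6V1H with enzastaurin over time to -0.02.

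Same-numbered DMSO and enzastaurin arrays did not deviate together (correlations from -0.0305 to 0.021). These correlations were taken over all probe sets, many of them dim, so they cannot exclude a pairing, and the labels do not state any. With a replicate block the calls were 0 at 4 h, 3 at 10 h, 10 at 18 h and 5 for the change of effect.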
